A study of Mus musculus with 6 samples.

Results

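The nuclear-encoded subunits of the mitochondrial respiratory chain and ATP synthase were examined in mouse dorsal skin. Members were the protein-coding genes whose symbols name subunits of complex I (Ndufa, Ndufb, Ndufc, Ndufs and Ndufv followed by a digit), complex II (Sdha to Sdhd), complex III (Uqcr), complex IV (Cox4 to Cox8) and complex V (Atp5). Cox6a2, the Sdhaf assembly factors and pseudogenes were left out. The choice used gene names only, and it gave 85 of the 55487 genes of the deposited count table, with 84 distinct symbols because Atp5o stands in 2 rows. Complex I had 35 rows, complex II 4, complex III 8, complex IV 19 and complex V 19. Ndufa4 and its paralogue Ndufa4l2 were placed with complex IV, where the Ndufa4 protein is found. Usmg5 was included through its RefSeq symbol, Atp5md. Atp5s, for which RefSeq uses the symbol Dmac2l, matched the naming rule but is regarded as a factor linked to assembly and not as a structural subunit.

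Whole dorsal skin was taken at day 2 from 6 samples, and all of them received DPCP, the contact sensitiser diphenylcyclopropenone. In 3 samples DPCP was combined with clodrosome (spelled Codrosome in the sample labels), liposomes that carry clodronate and are used to deplete phagocytes such as macrophages. The other 3 received DPCP with encapsome, liposomes without clodronate that serve as the control. The question set by the series was how skin expression under DPCP differs between these liposome treatments. Strain, age, sex and genotype are not given in the sources used here, and no sample without DPCP entered the comparison. Libraries are called clodrosome A, B and C and encapsome A, B and C, in the order of the columns of the table. The letters do not pair libraries across groups. The labels do not say whether the 3 samples of a group came from separate animals, so the p-values measure the spread between these samples, which may be partly technical.

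The electron transport chain lies in the inner mitochondrial membrane. Complex I oxidises NADH and complex II oxidises succinate, both passing electrons to ubiquinone, from which complex III moves them to cytochrome c and complex IV to oxygen. Complexes I, III and IV pump protons, and complex V, the ATP synthase, uses the proton gradient to make ATP. Most subunits are encoded in the nucleus and imported, and a small set is encoded by mitochondrial DNA. Several nuclear genes have a second copy used in particular tissues, such as the heart and skeletal muscle forms of complex IV subunits. In skin, mitochondrial respiration takes part in keratinocyte differentiation and in hair follicle growth.

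Each library held 26649396 to 116965654 read counts, with clodrosome A the deepest. Members took 0.974% to 1.13% of a library's counts. Of the 85 rows, 82 passed the filter on low counts, and each of these had counts in all 6 libraries. Cox7b2 and Cox8c, isoforms known from testis, and the second Atp5o row had 0 counts in every library. A count of 0 allowed a level of up to 0.0502 to 0.228 CPM (counts per 1000000 of the scaled library total), depending on the library (6 counts, or 3 fragments with both ends counted; this covers counting error only). The second Atp5o row shares 100% of its exonic bases with another gene, and reads that overlap several genes were not counted under the default of the counting tool. In these whole tissue libraries, fewer cells of a type and less RNA per cell cannot be told apart.

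The targeted cell type was lower in the clodrosome group. The 8 macrophage markers measured (Adgre1, Cd68, Mrc1, Cd163, C1qa, C1qb, C1qc and Csf1r) all passed the test as lower, with a summed level of 646 to 1602 CPM in clodrosome libraries and 3659 to 4391 CPM in encapsome libraries. Without clodrosome C or without encapsome A, 7 of the 8 passed. Other lists of cell type markers also moved: all 5 fibroblast genes and 4 of 5 genes of differentiated keratinocytes were lower. Of 7 basal keratinocyte genes 4 were higher (2 of 7 without encapsome B). Of 4 endothelial genes 3 were higher (2 of 4 without clodrosome C, encapsome A or encapsome C). Of 8 adipocyte genes 3 were lower (2 to 4 in the alternative fits), with 2 of the 8 above 0 and 6 below. Of 6 neutrophil genes 1 was higher (1 to 3 in the alternative fits), with 3 above 0 and 3 below. Among all genes tested, 22.4% were called, 9.41% as higher and 13% as lower. Of 5 erythrocyte genes 4 were lower by edgeR, but DESeq2 called 0, as did edgeR without any 1 of the clodrosome libraries or with a term for the class of ribosomal RNA share (the rRNA term), and 1 was called without encapsome B. Krt5, a keratin of the basal epidermis, averaged 6055 ± 574 CPM with clodrosome and 3839 ± 523 CPM with encapsome (SD, n = 3 each), as fits skin tissue. The part of these shifts in the subunit results was not tested, except for the values given beside single genes below.

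Transcript levels of the respiratory chain subunits differed little between the groups. Ndufv1, the complex I subunit that oxidises NADH, and Cox8b, the muscle form of complex IV subunit VIII, were higher with clodrosome. Ndufa4l2, the inducible paralogue of Ndufa4, was lower. No other member passed the threshold of an adjusted p under 0.05 (edgeR quasi-likelihood test, Benjamini-Hochberg adjustment over the 17988 genes tested). Of the 82 members tested, 2 were called higher and 1 lower, whereas 22.4% of all genes tested were called, 9.41% as higher and 13% as lower. Among the 12237 genes whose mean CPM lay within the range of the members other than tissue-restricted isoforms (4.80 to 1103 CPM), 27.8% were called. At an unadjusted p under 0.05, 7 members were higher and 2 lower, against 35.8% of all genes in either direction.

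The median log2 fold change (clodrosome over encapsome) of the members was -0.016 (0.016 with scaling by total counts only), beside 0.0090 for all genes tested, with 40 members above 0 and 42 below. The log2 fold change of 76 members (92.7%) lay within 0.25 of 0, against 53.9% of all genes. The 95% confidence interval of the fold change stayed inside 1.5-fold in either direction for 77 members (93.9%; 51.3% of all genes) and inside 2-fold for 80 members (97.6%; 74.7%). Clodrosome and encapsome libraries did not overlap in CPM for 12 members with higher and 3 with lower values, against 40.2% of all genes (19.5% higher, 20.7% lower). The remaining 67 members overlapped.

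**Figure D1:**
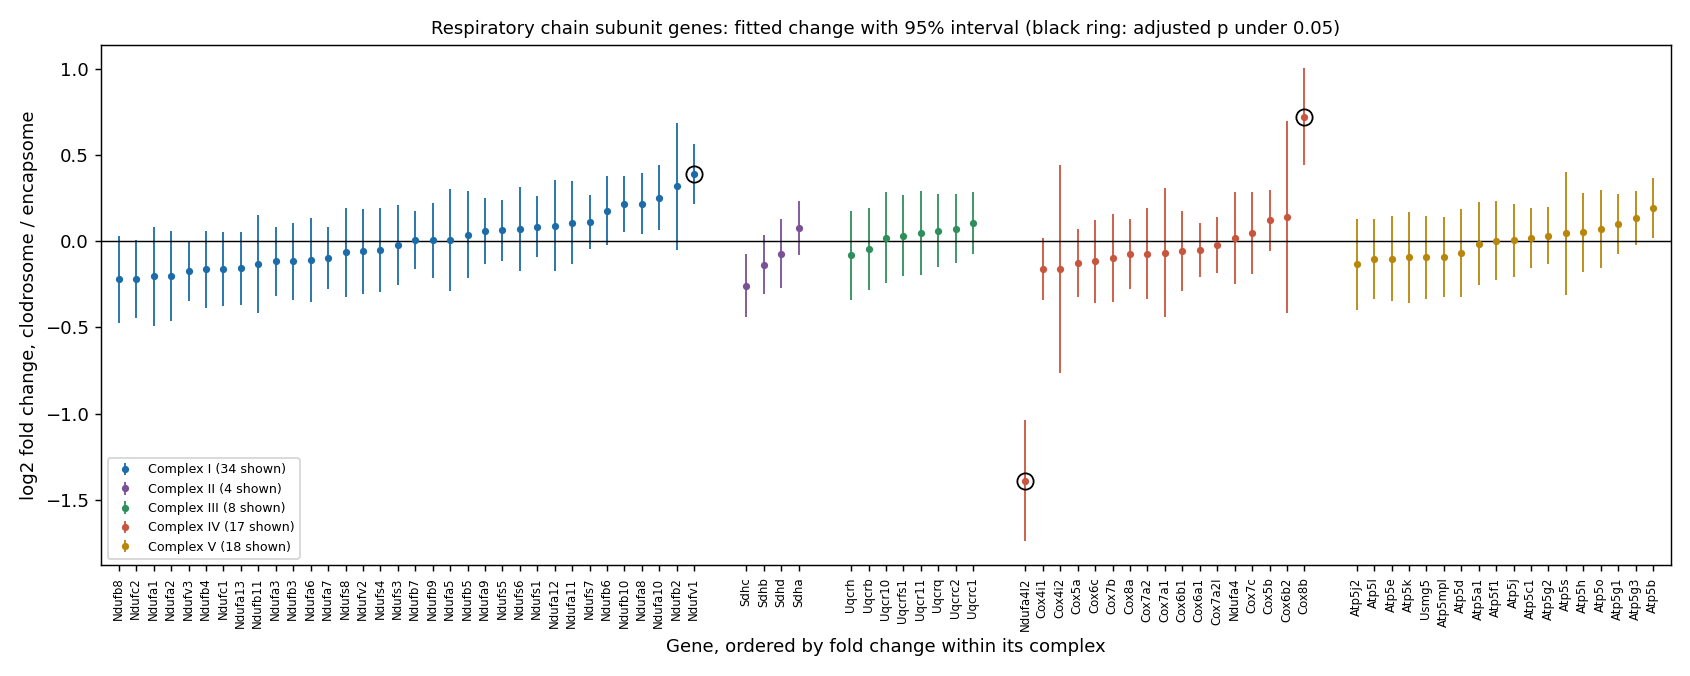
Log2 fold change (clodrosome over encapsome, vertical axis) of 81 tested subunit genes (horizontal axis, ordered by fold change within complexes I to V), with bars for the 95% confidence interval and black rings around genes with an adjusted p under 0.05. Nearly all points lie close to 0. Cox8b and Ndufa4l2 stand apart, and Ndufv1, also ringed, is the highest point of complex I.

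**Figure D2:**
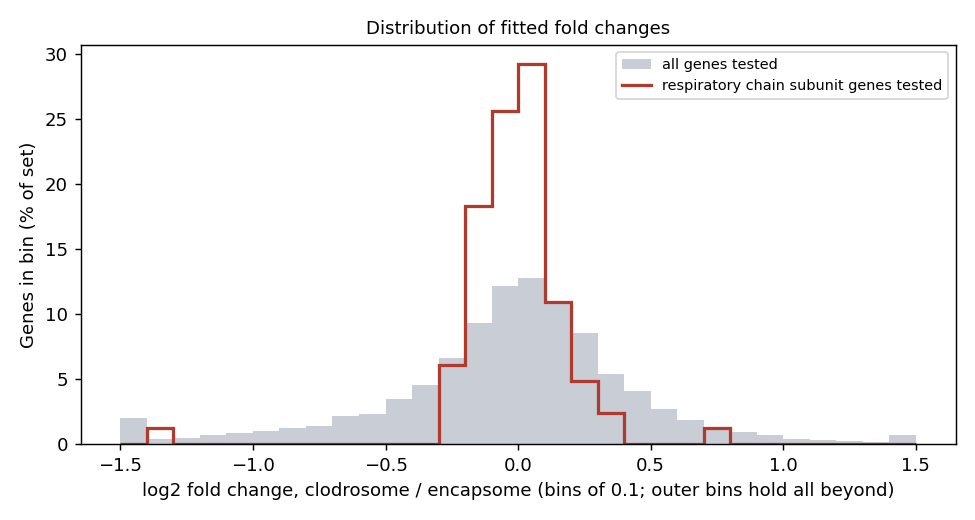
Share of genes (percent of each set, vertical axis) in bins of the log2 fold change (clodrosome over encapsome, horizontal axis) for the 82 tested subunit genes (line) and all 17988 tested genes (filled). The subunit genes are gathered nearer to 0, with 92.7% within 0.25 against 53.9% of all genes.

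The counts of called members rested in part on a single library. Without clodrosome B, 5 members were called higher (Cox8b, Ndufv1, Ndufa10 and Ndufb10 among them) and 9 lower (Ndufa4l2, Sdhc, Ndufb8, Ndufb11, Ndufa2, Ndufa13, Ndufc1, Ndufc2 and Atp5j2), the median of the members was -0.13, and 38 members had an unadjusted p under 0.05. In that fit 23.8% of all genes were called. Leaving out any of the other 5 libraries gave 2 members called higher and 1 lower each time, with 13.5% to 17.4% of all genes called. Ndufv1, Cox8b and Ndufa4l2 were called, in the same direction, in all 14 alternative fits.

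Complex I showed 1 called gene among 35. Its 7 core subunits, which carry the flavin and iron-sulfur clusters, had a median log2 fold change of 0.086, and its 28 accessory subunits one of -0.021 with 0 called (edgeR and DESeq2; 3 of the 28 had an unadjusted p under 0.05, all higher). Ndufv1 (chr19:4007384-4012806 on GRCm38, minus strand) encodes the subunit that binds flavin mononucleotide and takes electrons from NADH. Its level was 135, 127 and 139 CPM in clodrosome A, B and C, and 107, 93.9 and 105 CPM in encapsome A, B and C. Every clodrosome library lay above every encapsome library. The means were 134 ± 6.05 and 101.9 ± 6.99 CPM (SD, n = 3 each). The log2 fold change was 0.39, with a standard error of 0.077 (edgeR adjusted p = 0.0068). No exonic base of Ndufv1 lies under another gene, and none of its 50-base windows occurs in another gene's transcripts. Its start is shown here because it was the only called member other than the alternative subunits of complex IV. The window (RefSeq, GRCm38.p6, chr19:4012706-4013005, minus strand) runs from 250 bases before to 50 bases after the RefSeq start, and it held no match to the 5 motifs searched below.
Ndufv1 promoter: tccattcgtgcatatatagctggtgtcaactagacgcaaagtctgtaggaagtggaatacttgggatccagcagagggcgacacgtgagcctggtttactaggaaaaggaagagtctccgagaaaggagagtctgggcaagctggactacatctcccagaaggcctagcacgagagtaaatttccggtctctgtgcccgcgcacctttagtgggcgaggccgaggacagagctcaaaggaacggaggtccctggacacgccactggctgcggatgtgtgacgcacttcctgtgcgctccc

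The other core subunits of complex I gave smaller differences. Ndufs1, the largest core subunit, which carries iron-sulfur clusters, measured 126, 150.3 and 142 CPM with clodrosome and 132, 129 and 133 CPM with encapsome. The clodrosome values lay on both sides of the encapsome values, and the log2 fold change was 0.086 (edgeR adjusted p = 0.49). Ndufs7, which carries the last iron-sulfur cluster before ubiquinone, was chosen for mention after its values were seen, as were Ndufa10, Ndufa8 and Ndufb10. The groups did not overlap for Ndufs7, at 50.8, 50.4 and 53.3 CPM against 46.9, 46.2 and 49.6 CPM, with a log2 fold change of 0.11 (edgeR adjusted p = 0.28).

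Among the accessory subunits of complex I, the largest transcript level per exonic length, as a mean over the 6 libraries, belonged to Ndufb11, at 316.7 TPM. Ndufa1 was next at 315 TPM. Length throughout is that of all annotated exons of a gene, which for many members exceeds the longest coding transcript. For Ndufa7 these are 1828 and 528 bases. Rankings and shares per length depend on this choice. Ndufb11 had 306 ± 39.5 TPM (counts per length, scaled to a library total of 1000000; SD, n = 3) in the clodrosome group and 327 ± 17.0 TPM in the encapsome group. Ndufb11 is an X-linked subunit of the membrane arm. Ndufb8, also of the membrane arm, had the lowest log2 fold change of the complex. It measured 56.6, 79.2 and 64.3 CPM with clodrosome and 75.9, 78.0 and 78.6 CPM with encapsome, a log2 fold change of -0.22 (edgeR adjusted p = 0.20). Clodrosome A and C were below all encapsome libraries and clodrosome B above them, and without clodrosome B the log2 fold change was -0.36 (edgeR adjusted p = 0.0097). Ndufb11 behaved alike, with a log2 fold change of -0.13 (edgeR adjusted p = 0.50) that became -0.29 without clodrosome B (edgeR adjusted p = 0.034).

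Ndufa10, an accessory subunit of the matrix side of the membrane arm, measured 134, 119 and 144 CPM with clodrosome and 112, 107 and 115 CPM with encapsome, a log2 fold change of 0.25 (edgeR adjusted p = 0.059). Ndufb10 measured 75.7, 72.5 and 80.0 CPM against 67.1, 62.3 and 66.9 CPM, a log2 fold change of 0.22 (edgeR adjusted p = 0.057). Ndufa8 measured 62.2, 56.1 and 53.8 CPM against 47.2, 50.7 and 50.1 CPM, a log2 fold change of 0.22 (edgeR adjusted p = 0.078). The clodrosome libraries were above the encapsome libraries for all 3 genes. None passed the threshold in the fit reported here, and some did under other scalings, as given in the closing section. The lowest counted level of the complex was that of Ndufb2, at a mean of 4.80 CPM. Of its exonic bases, 7.94% lie under other genes, and the part of uncounted shared reads in this level was not tested. Its log2 fold change was 0.32 (edgeR adjusted p = 0.20), and its groups did not overlap.

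Complex II is also the succinate dehydrogenase of the citric acid cycle. Of its 4 subunits, 0 were called by edgeR, 1 had an unadjusted p under 0.05 and DESeq2 called 1, Sdhc, lower. The median log2 fold change of the complex was -0.10. Sdha, the flavoprotein that oxidises succinate, measured 265, 263 and 283 CPM with clodrosome and 254, 257 and 258 CPM with encapsome. The groups did not overlap, but the log2 fold change was 0.079 (edgeR adjusted p = 0.47). Sdhb, the iron-sulfur subunit, had a log2 fold change of -0.13 (edgeR adjusted p = 0.24). The membrane anchor Sdhc measured 81.6, 98.2 and 92.5 CPM against 105, 111 and 109 CPM, with all clodrosome libraries below all encapsome libraries. Its log2 fold change was -0.26 with a standard error of 0.082, just short of the threshold (edgeR adjusted p = 0.051), and 4 of 14 alternative fits called it lower. The other anchor, Sdhd, had the highest level per length of the complex, 351 ± 18.8 and 359 ± 3.97 TPM (SD, n = 3 each), and a log2 fold change of -0.071 (edgeR adjusted p = 0.62).

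All 8 subunits of complex III overlapped between the groups, and 0 were called (edgeR; 0 had an unadjusted p under 0.05, and DESeq2 called 0). Their log2 fold changes ran from -0.082 for Uqcrh, the hinge protein, to 0.11 for Uqcrc1, a core subunit. Uqcrc1 measured 192, 176 and 162 CPM with clodrosome and 162, 162 and 167 CPM with encapsome, so clodrosome A stood highest and clodrosome C lowest of the 6. Uqcrfs1, the Rieske iron-sulfur protein, measured 130.4, 174 and 156 CPM against 142, 153 and 155 CPM, with clodrosome A lowest and clodrosome B highest. Its log2 fold change was 0.033 (edgeR adjusted p = 0.86). Uqcr10, a small subunit, had the highest level per exonic length, 549 ± 63.3 TPM with clodrosome and 526 ± 14.9 TPM with encapsome (SD, n = 3 each). This rank depends on the length used, since Uqcrh has 1237 exonic bases and a longest coding transcript of 547 bases.

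Complex IV, cytochrome c oxidase, held 2 of the 3 called genes, and both are tissue-restricted or inducible forms. Apart from the alternative forms, 12 members were placed with complex IV, Ndufa4 and Cox7a2l among them. These 12 had 0 called (edgeR and DESeq2, with 0 at an unadjusted p under 0.05) and a median log2 fold change of -0.066. Cox4i1, the usual form of subunit IV, measured 169, 184 and 164 CPM with clodrosome and 196, 179.9 and 202 CPM with encapsome. The values overlapped through clodrosome B and encapsome B, and the log2 fold change was -0.16 (edgeR adjusted p = 0.18). Cox5a had a log2 fold change of -0.12 (edgeR adjusted p = 0.36), and 32.0% of its 50-base windows also occur in other genes. Cox6b1, the highest subunit per exonic length, had 761 ± 62.1 TPM with clodrosome and 771 ± 11.1 TPM with encapsome (SD, n = 3 each). This rank too depends on the length used, since Ndufa4 has 1381 exonic bases and a longest coding transcript of 610 bases.

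Cox8b (chr7:140898945-140900446, minus strand) is the form of subunit VIII found in heart, skeletal muscle and brown fat, and Cox8a is the form of most other tissues. Cox8b measured 14.5, 16.5 and 18.9 CPM in clodrosome A, B and C and 9.33, 10.1 and 10.7 CPM in encapsome A, B and C. All clodrosome libraries were above all encapsome libraries, with means of 16.6 ± 2.22 and 10.04 ± 0.670 CPM (SD, n = 3 each). The log2 fold change was 0.72 with a standard error of 0.13, or 1.65-fold (edgeR adjusted p = 0.0036). Cox8a measured 142, 175 and 149 CPM against 156, 166 and 168 CPM, with overlap and a log2 fold change of -0.075 (edgeR adjusted p = 0.60). Per length, Cox8b stood at 18.5% ± 2.90 of the Cox8a level with clodrosome and 10.6% ± 0.342 with encapsome (SD, n = 3 each), and the groups did not overlap. The depth behind the Cox8b values was 280 to 1731 counts per library.

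Markers of skeletal muscle moved with Cox8b. Of the 14 listed, 7 were called higher and 0 lower among the 13 tested (3 higher without clodrosome C or without encapsome B, 4 without encapsome A), and their summed level was 4874 to 6606 CPM with clodrosome and 3451 to 4133 CPM with encapsome. Tnnc2 was too low to test. Acta1, skeletal muscle actin, had a log2 fold change of 0.60 (edgeR adjusted p = 0.0055). Cox6a2, the muscle form of subunit VIa, which the naming rule left out of the members and which is 1 of the 14 markers, measured 40.5, 44.3 and 54.4 CPM against 24.1, 29.8 and 35.2 CPM. Its log2 fold change was 0.64 (edgeR adjusted p = 0.014), and all clodrosome libraries were above all encapsome libraries. Of 4 brown fat markers, Cidea and Elovl3 were not called (edgeR adjusted p = 0.059 and 0.098; DESeq2 called both higher), and Ucp1, at 0.070 and 0.072 CPM, and Cpt1b were too low to test. The part of muscle RNA in the Cox8b result was not tested.

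The starts of both genes are shown because these paralogues differed in their response. Both windows are from RefSeq (GRCm38.p6) and cover 250 bases before to 50 bases after the start, with Cox8a at chr19:7217567-7217866 and Cox8b at chr7:140900397-140900696, both on the minus strand. Capitals in the Cox8a window mark 2 matches to the ETS motif, CCGGAAG, read on the opposite strand as CTTCCGG, at bases 246 to 252 and 283 to 289 of the window. Capitals in the Cox8b window mark 2 matches to CAGCTG, an E-box form bound by myogenic factors, at bases 232 to 237 and 267 to 272. The matches do not overlap other motifs searched. CAGCTG occurred in 16.3% of all RefSeq windows searched and the ETS motif in 8.86%. Among the members, 6 genes had CAGCTG in a window, Cox8b included, and the muscle form Cox7a1 did not. Whether these matches bear on the difference between Cox8b and Cox8a was not tested.
Cox8a promoter: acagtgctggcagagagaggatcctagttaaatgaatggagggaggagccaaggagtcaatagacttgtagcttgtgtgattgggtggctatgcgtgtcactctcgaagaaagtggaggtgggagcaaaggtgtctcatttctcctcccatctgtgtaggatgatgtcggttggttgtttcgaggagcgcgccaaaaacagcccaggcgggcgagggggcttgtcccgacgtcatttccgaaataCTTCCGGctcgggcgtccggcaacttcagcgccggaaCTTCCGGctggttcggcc
Cox8b promoter: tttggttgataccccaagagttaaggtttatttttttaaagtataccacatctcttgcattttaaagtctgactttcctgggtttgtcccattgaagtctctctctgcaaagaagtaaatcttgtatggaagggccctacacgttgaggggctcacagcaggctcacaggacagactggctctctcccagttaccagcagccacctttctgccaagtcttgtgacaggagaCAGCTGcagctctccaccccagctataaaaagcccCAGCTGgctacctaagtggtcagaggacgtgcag

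Ndufa4l2 (chr10:127514967-127517154, plus strand) is induced by hypoxia through HIF-1 and is known from pericytes and vascular smooth muscle. It measured 5.82, 7.20 and 9.12 CPM in clodrosome A, B and C and 19.0, 19.4 and 19.1 CPM in encapsome A, B and C, with no overlap. The means were 7.38 ± 1.66 and 19.2 ± 0.219 CPM (SD, n = 3 each). The log2 fold change was -1.39 with a standard error of 0.16, and the level was 2.62-fold lower with clodrosome (edgeR adjusted p = 4.0e-04). The usual subunit Ndufa4 measured 182, 256 and 207 CPM against 201, 219.9 and 215 CPM, a log2 fold change of 0.018 (edgeR adjusted p = 0.93). Per exonic length, Ndufa4l2 was 4.38% ± 1.05 of Ndufa4 with clodrosome and 11.4% ± 0.418 with encapsome (SD, n = 3 each). The exonic lengths are 1095 bases for Ndufa4l2 and 1381 for Ndufa4, and the longest coding transcripts 934 and 610 bases. By transcript length both shares would be smaller.

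Of 6 smooth muscle and pericyte markers, Acta2 was higher (log2 fold change 0.41, edgeR adjusted p = 0.026) and Pdgfrb lower (-0.68, edgeR adjusted p = 5.75e-04), while Rgs5 (0.23), Cspg4 (0.19), Myh11 (0.015) and Tagln (-0.50) were not called. The Acta2 call was lost without clodrosome A, clodrosome C, encapsome A or encapsome C. The summed level of the list was 364 to 487 CPM with clodrosome and 355 to 412 CPM with encapsome, and these ranges overlapped. The macrophage, fibroblast and differentiated keratinocyte lists were lower, like Ndufa4l2. Genes of the erythrocyte list (4 of 5, not by DESeq2) and of the adipocyte list (3 of 8) were lower as well. The part of these lists in the Ndufa4l2 result was not tested.

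The other alternative subunits were low and did not differ beyond their spread. Cox4i2, the lung form of subunit IV, measured 1.64, 2.30 and 2.35 CPM with clodrosome and 1.55, 2.72 and 2.66 CPM with encapsome (edgeR adjusted p = 0.72). Cox7a1, the muscle form of subunit VIIa, measured 4.28, 5.82 and 4.87 CPM against 4.55, 5.45 and 5.56 CPM, a log2 fold change of -0.066 with an interval from -0.44 to 0.31 (edgeR adjusted p = 0.81). Unlike Cox8b and Cox6a2, it is a muscle form whose groups overlapped, although the difference between these genes was not tested. Cox6b2, a testis form, measured 1.13, 0.954 and 1.19 CPM against 1.03, 1.06 and 0.876 CPM (edgeR adjusted p = 0.73). Per length, Cox7a1 was 7.57% ± 0.174 of its usual counterpart Cox7a2 with clodrosome and 7.46% ± 0.529 with encapsome (SD, n = 3 each).

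**Figure D3:**
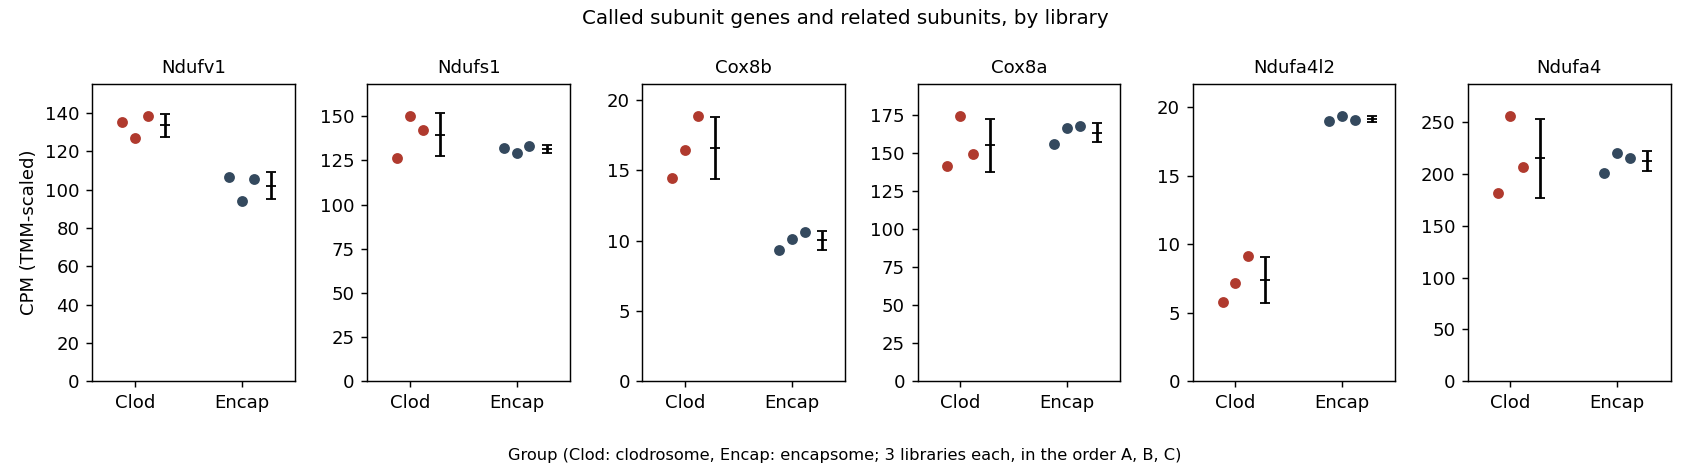
Level in CPM (vertical axes, each from 0 and on its own scale) of the 3 called subunit genes, each beside a related subunit, with 1 dot per library in the order A, B, C and the mean with SD (n = 3). Ndufv1, Cox8b and Ndufa4l2 do not overlap between groups, and Ndufs1, Cox8a and Ndufa4 do.

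Complex V, the ATP synthase, had 0 of 18 tested rows called (edgeR; 1 with an unadjusted p under 0.05; DESeq2 called 0). Atp5b, the catalytic beta subunit, had the highest CPM of the members, with 1203, 1187 and 1139 CPM in the clodrosome libraries and 1019, 1025 and 1043 CPM in the encapsome libraries. The groups did not overlap, and the log2 fold change of 0.19 missed the threshold (standard error 0.077, edgeR adjusted p = 0.11). Its partner in the catalytic head, the alpha subunit Atp5a1, measured 718, 940.2 and 781 CPM against 809, 811 and 842 CPM, with clodrosome A lowest and B highest, and a log2 fold change of -0.013 (edgeR adjusted p = 0.94). Atp5j2, a small membrane subunit, had the lowest value of the complex, a log2 fold change of -0.13 (edgeR adjusted p = 0.47), and it was called lower without clodrosome B (-0.28, edgeR adjusted p = 0.028). Reads of some members may be lost to near-identical copies: 15 members share over 25% of their 50-base windows with other genes, including Atp5l with 84.8%, while 39 share none.

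Summed over its subunits, the ratio of group means ran from 0.983 for complex II to 1.05 for complex V. Complex I held 4580 ± 202 TPM with clodrosome and 4540 ± 91.8 TPM with encapsome, complex II 722 ± 21.8 and 735 ± 6.02 TPM, complex III 2522 ± 205 and 2433 ± 42.5 TPM, and complex IV 4761 ± 249.7 and 4755 ± 62.3 TPM (SD, n = 3 each). In each of these 4 the groups overlapped. Complex V held 4146 ± 130.2 and 3961 ± 36.0 TPM, a ratio of 1.05, and its 3 clodrosome sums (4011, 4270.5 and 4156 TPM) lay above its encapsome sums (3948, 3933 and 4002 TPM). The lowest of these clodrosome sums, in clodrosome A, was close to the highest encapsome sum, in encapsome C. Atp5b alone made up 747 ± 50.6 and 633 ± 5.67 TPM of the complex V sums (SD, n = 3 each). Of the 18 tested rows of complex V, 2 were higher without overlap in CPM, Atp5b and Atp5g3, and 16 overlapped. Among all genes tested, 40.2% did not overlap. All members together held 16731 ± 796 and 16423 ± 211 TPM, with overlap.

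**Figure D4:**
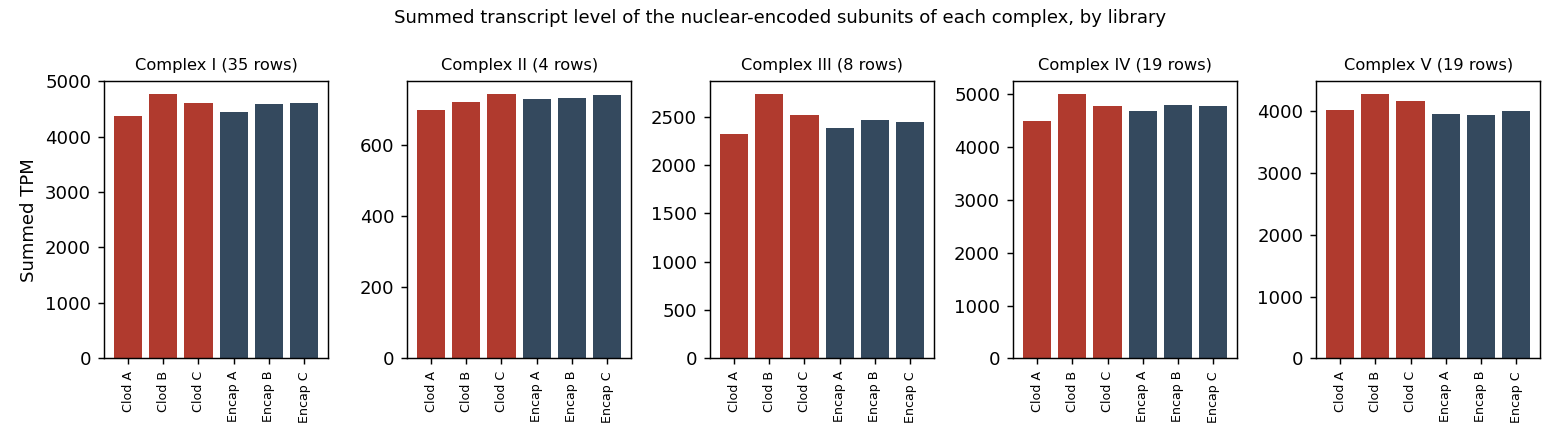
Summed TPM of the nuclear-encoded subunits of each complex (vertical axes from 0, each on its own scale), 1 bar per library. The bars of clodrosome A and B differ more from each other than the group means do. For complex V alone the 3 clodrosome bars exceed the 3 encapsome bars, with clodrosome A only slightly above encapsome C.

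Members varied together among the clodrosome libraries. Clodrosome A had the lowest CPM of the 6 libraries in 58 of 82 members (70.7%, against 15.6% of all genes tested), and clodrosome B the highest in 52 (63.4%, against 22.5%). Clodrosome B was the lowest library for 0 members. The median deviation of the members from their own mean was -0.18 on the log2 scale in clodrosome A, 0.16 in clodrosome B and between -0.053 and 0.048 in the other 4 libraries. The range among clodrosome libraries exceeded the difference between group means for 72 members (87.8%, against 59.3% of all genes). The median range was 0.35 in the clodrosome group and 0.12 in the encapsome group, beside a median absolute difference between groups of 0.097, all on the log2 scale.

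The 82 tested genes named as cytosolic ribosomal proteins had the same extreme libraries, with clodrosome A lowest in 52 and clodrosome B highest in 72. The 13 subunits encoded by mitochondrial DNA did not: encapsome A was lowest in 9 and clodrosome C highest in 6. Clodrosome A was the deepest library, and clodrosome B had a share of ribosomal RNA of 0.796%, near the 0.788% and 0.845% of encapsome C and B, while clodrosome A, clodrosome C and encapsome A had 0.355%, 0.334% and 0.481%. Within the 3 libraries of higher share, the median difference of the members was 0.12, and within the 3 of lower share it was -0.062 (log2). Ndufv1 differed by 0.35 and 0.36 in these classes, Cox8b by 0.66 and 0.82, and Ndufa4l2 by -1.41 and -1.38. Each class has 1 library of a group alone, so these are values with no test.

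**Figure D5:**
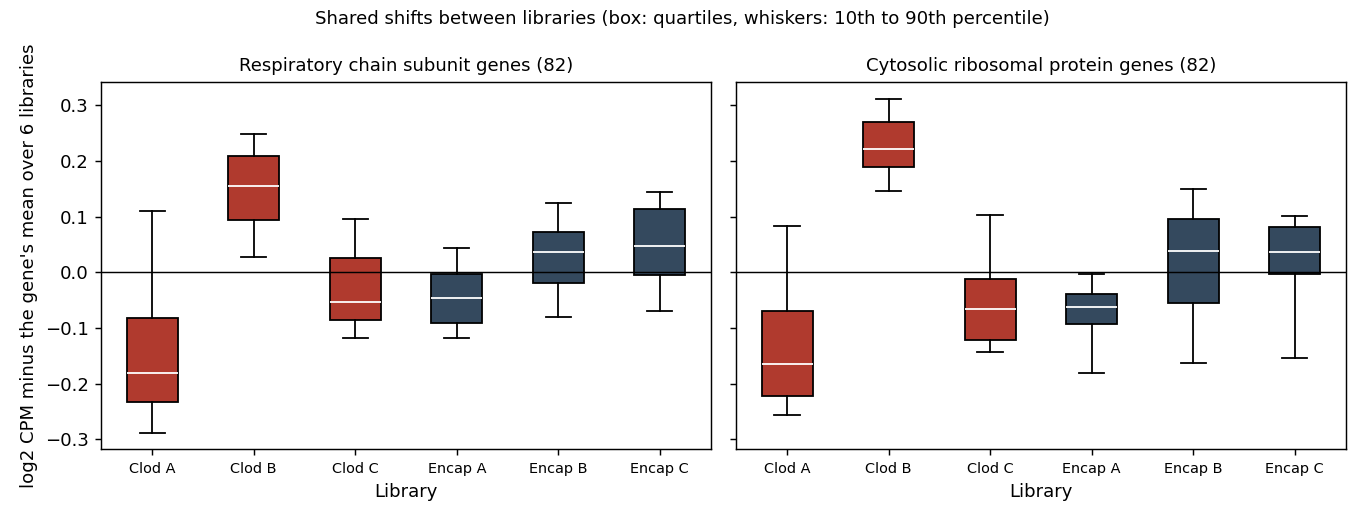
Deviation of genes from their own mean over the 6 libraries (log2, vertical axis) in each library (horizontal axis), for the 82 subunit genes and the 82 genes named as cytosolic ribosomal proteins, as boxes of quartiles with the median as a line and whiskers from the 10th to the 90th percentile. The subunit genes sit low in clodrosome A (median -0.18) and high in clodrosome B (median 0.16).

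Other genes of the pathway were read from lists of known components. The 13 subunits encoded by mitochondrial DNA had 0 called (edgeR and DESeq2; 0 with an unadjusted p under 0.05) and a median log2 fold change of 0.031. Of 43 assembly factors tested, which build and insert the subunits, 2 were higher and 2 lower, with a median of -0.015 (0.017 with total counts only). Without clodrosome B these counts were 3 and 5, without clodrosome A or clodrosome C 1 and 1, without encapsome B 0 and 1, and without encapsome C 0 and 2. Ndufaf4, a complex I assembly factor, averaged 45.8 ± 2.66 CPM with clodrosome and 36.6 ± 0.325 CPM with encapsome (SD, n = 3 each), with a fitted log2 fold change of 0.32 (edgeR adjusted p = 0.013). Acad9, which also acts in complex I assembly, was higher as well (0.28, edgeR adjusted p = 0.044). Tmem126b, another complex I factor, was lower (-0.35, edgeR adjusted p = 0.020), as was Pet100, a complex IV factor (-0.53, edgeR adjusted p = 0.0098). The called complex I factors thus moved in opposite directions. Sco2 and Cox20 were too low to test.

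Of the 18 electron carriers and entry points, 3 were higher and 0 lower (1 higher without encapsome B or without encapsome C), with a median log2 fold change of 0.15. These 3 act in the synthesis of ubiquinone. Coq8a averaged 119.6 ± 11.3 and 69.05 ± 9.53 CPM (SD, n = 3 each), and its log2 value rose by 0.79 (edgeR adjusted p = 0.0013). Pdss1 rose by 0.41 (edgeR adjusted p = 0.012) and Coq6 by 0.35 (edgeR adjusted p = 0.021) on the log2 scale. Of 16 citric acid cycle genes, Idh3a (0.35, edgeR adjusted p = 0.0066) and Mdh2 (0.36, edgeR adjusted p = 0.0084) were higher and Fh1 (-0.31, edgeR adjusted p = 0.014) was lower, with a median of 0.15. The count called higher was 6 without clodrosome B, 4 with total counts only or with the rRNA term and 5 with upper-quartile scaling or with no filter, and Fh1 was not called without clodrosome C or encapsome B. Of 18 genes of the outer membrane and protein import, Hspd1, the mitochondrial chaperonin, was higher (0.35, edgeR adjusted p = 0.010), and the median was 0.15 with 17 of 18 above 0. This list had 4 called with total counts only, 3 with upper-quartile scaling, 2 without clodrosome B or with the rRNA term, and 0 without clodrosome C or encapsome B. None of the 14 tested regulators of mitochondrial biogenesis was called (edgeR and DESeq2; 1 had an unadjusted p under 0.05), and 1 was called higher with the rRNA term. Ppargc1a, the coactivator PGC-1alpha, averaged 4.33 ± 0.852 and 3.399 ± 0.456 CPM (SD, n = 3 each) with a log2 fold change of 0.35 (edgeR adjusted p = 0.24). At an unadjusted p under 0.05 (edgeR), 5 carrier genes were higher and 1 lower, against 35.8% of all genes in either direction. The citric acid cycle list had 7 higher and 1 lower, and the import list 8 higher and 0 lower. The summed level of the import list was 3907 to 4031 CPM with clodrosome and 3451 to 3606 CPM with encapsome. For the citric acid cycle it was 2367 to 2533 against 2148 to 2228 CPM, and for the carriers 761 to 805 against 668 to 712 CPM. The shares called in these lists stand beside 22.4% for all genes, and whether the lists differ from the subunits was not tested.

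The members' start regions were searched for 5 motifs, on both strands. RefSeq windows of 300 bases were found for 69 member genes (74 windows), and the same search covered all 32851 windows of the table. The NRF1 motif, named after a nuclear respiratory factor, occurred in 24.3% of member windows and 4.60% of all windows. The ETS motif, CCGGAAG, which the respiratory factor GABP binds, occurred in 23.0% and 8.86%. The YY1 motif, AANATGGC, occurred in 23.0% and 6.05%. The MEF2 motif, TAAAAATA, occurred in 0% and 2.72%, and the E-box CAGCTG in 8.11% and 16.3%. Windows share base composition near starts, so these shares are descriptions, and a match does not show that a factor binds.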

How the data were processed

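PolyA RNA of whole dorsal skin was sequenced in 6 libraries with a stranded mRNA kit and paired ends, per the labels' protocols. The submitters' processing notes name Trimmomatic 0.36, HISAT2 2.2.1, StringTie 2.2.1, featureCounts 1.6.2, DESeq2 1.34.0 and the build mm10. The deposited values are raw counts per gene made by the authors with featureCounts 1.6.2 on Ensembl 102 annotation of GRCm38, per the file headers. The command there sets no option for pairs, strand or multiply mapped reads, so by that tool's defaults read ends are counted singly, strand is ignored and reads shared between genes are left out. Of counts up to 20, 63.6% to 69.7% per library were even.

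Counts were tested with edgeR 4.0.16 in R 4.3.3 (TMM scaling, filterByExpr with minimum count 10 and total 15, quasi-likelihood test, Benjamini-Hochberg adjustment over 17988 genes, threshold 0.05). CPM are TMM-scaled, and TPM use exonic length. Standard errors were derived from the fold change and its F statistic. The script was tested on simulated data. No libraries were duplicates. Symbols, of GENCODE M21, were found for 55141 rows, and 18 rows were left out by the naming rule (16 annotated as pseudogene or non-coding, Gm11273, which RefSeq names as a pseudogene, and Cox6a2). Alternatives were other scalings, DESeq2 1.42.0, other filters, thinning to the median total, leaving out each library and a term for the rRNA share.

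Genes were named by a rule: all called members, 10 core subunits, the alternative subunits with their usual forms, per complex the highest TPM and the largest change each way, and in other lists up to 3 genes of smallest p. Genes outside it were chosen after their values were seen. Among these were Ndufs7, Ndufs8, Ndufa1, Ndufa10, Ndufa8, Ndufb10, Ndufb2, Atp5g3, Acad9, marker genes and those listed for the fit without clodrosome B. 1 tested member is counted but not reported here. The members and lists were chosen with earlier results of these data known.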

Additional observations from a re-analysis of the deposited data

How the results depend on the processing

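The 3 called members, Ndufv1 (log2 fold change 0.33 to 0.43), Cox8b (0.62 to 0.82) and Ndufa4l2 (-1.58 to -1.23), stayed called in all 14 alternatives. The count of members called higher, 2 in the reported fit, was 5 with total counts only, 6 with upper-quartile scaling and 4 with a filter of a mean of at least 1 CPM, and the count called lower, 1 in the reported fit, was 2 with DESeq2's size factors in edgeR, 2 with DESeq2 and 2 with the CPM filter. The added genes included Ndufa10, Ndufb10 and Ndufa8 (higher) and Sdhc (lower), all near the threshold, and the cause was not tested. The share of all genes called was 23.2% with total counts only, 23.5% with upper-quartile scaling and 25.9% with the CPM filter. It was 22.4% with DESeq2's size factors in edgeR and 21.9% with DESeq2. Leaving out each library gave 2 to 5 higher and 1 to 9 lower, with the extremes (5 and 9) without clodrosome B, and a median of the members of -0.13 to 0.045. Of the 24 other named members, 10 changed sign in some alternative, all uncalled. The term for the class of rRNA share was chosen after seeing the data and gave 2 higher and 1 lower. No paired analysis was possible because the count columns carry numbers other than those by which the labels number replicates. Depth limits the isoforms at a few CPM, whose intervals are the widest.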

Other observations

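Ndufb1-ps, named as a pseudogene of a complex I subunit and annotated as a non-coding transcript, was left out of the members but was present at the level of many of them. It measured 52.8, 76.5 and 60.2 CPM in clodrosome A, B and C and 65.1, 66.6 and 76.0 CPM in encapsome A, B and C, a log2 fold change of -0.13 (edgeR adjusted p = 0.51). Clodrosome A was its lowest library and clodrosome B its highest, as for most of the subunit genes.

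Ndufs8 and Ndufv1 lie 94609 bases apart on chromosome 19. Ndufs8, a core iron-sulfur subunit of complex I, had a log2 fold change of -0.062 (edgeR adjusted p = 0.74), beside 0.39 for Ndufv1.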
